A study of Mus musculus with 14 samples.

Results

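The 39 genes described here are type I interferon response genes: the interferon receptor and its signalling proteins, sensors of viral nucleic acid, and antiviral effectors that interferon induces. They were taken from a list of interferon-stimulated genes and their regulators and were matched by gene number to the deposited table. All 39 were found among its 27179 genes, and the matching used no measured value. Their RNA was measured in regulatory T cells (Tregs), the suppressive CD4 T cells defined by the factor Foxp3, sorted for FoxP3-YFP from mice with MC38 flank tumors at endpoint. MC38 is a mouse colon carcinoma line.

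The libraries fall into 4 groups. TIL Flox (3 libraries) and Spleen Flox (3 libraries) are Tregs of the strain B6.IL23RFlox FoxP3Cre-YFP from tumor and from spleen. TIL WT (4 libraries) and Spleen WT (4 libraries) are Tregs of the strain B6.IL23RWT FoxP3Cre-YFP from the same tissues. Every group carried the FoxP3Cre-YFP allele, which drives both Cre and the sorting label in Foxp3-expressing cells, and every mouse bore a tumor, so the spleen is not that of a tumor-free animal. Age and the number of mice behind a library are not in the labels, and p-values measure the spread between these libraries, which may be technical. The study compared Flox with WT within each tissue, to ask what loss of the IL-23 receptor does to Tregs. The tumor against spleen comparison was added here.

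Type I interferons bind a receptor made of IFNAR1 and IFNAR2, whose kinases phosphorylate STAT2. STAT2 joins IRF9 in the complex ISGF3, which binds the interferon-stimulated response element (ISRE) in the promoters of its targets. The targets include antiviral effectors, more of the sensors that detect viral RNA and DNA, IRF7, which amplifies interferon production, and USP18, which shuts the receptor off. In T cells the same genes respond to interferon made by other cells of an inflamed tissue or tumor.

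An ISRE, searched as GAAA, NN and GAAA in a row on either strand, where N is any base, lay in the 250 bases before the transcript start of 8 of the 29 members whose promoter is in the RefSeq table (27.6%), against 936 of 27025 genes (3.46%). The gamma-activated site, another interferon element, was searched as TTCNNNGAA on either strand and lay in 5 of the 29 (17.2%), against 8.13% of all genes. The motifs could overlap each other. A match is a description of letters and not evidence of binding. The 8 stretches are shown because they hold the element through which these genes are classically induced. Each is given 5′ to 3′ on the strand of its gene, from RefSeq on GRCm38.p6, the assembly also called mm10, with the matched letters in capitals.

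Isg15 (chr4:156200860-156200911, minus strand): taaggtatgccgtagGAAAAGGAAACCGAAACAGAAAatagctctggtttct
Oas3 (chr5:120777710-120777749, minus strand): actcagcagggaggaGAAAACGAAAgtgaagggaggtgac
Trim30a (chr7:104465205-104465244, minus strand): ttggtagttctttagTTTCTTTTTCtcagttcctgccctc
Bst2 (chr8:71537572-71537617, minus strand): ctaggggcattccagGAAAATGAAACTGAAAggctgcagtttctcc
Stat2 (chr10:128270261-128270300, plus strand): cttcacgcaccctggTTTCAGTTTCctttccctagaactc
Rsad2 (chr12:26456548-26456587, minus strand): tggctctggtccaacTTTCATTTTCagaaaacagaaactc
Ifit3 (chr19:34583392-34583431, plus strand): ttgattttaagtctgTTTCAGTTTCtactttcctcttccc
Ifit1 (chr19:34640770-34640828, plus strand): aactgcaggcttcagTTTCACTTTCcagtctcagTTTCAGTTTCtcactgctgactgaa

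In Isg15 the capitals cover 3 overlapping matches, and in Bst2 they cover 2. Ifit1 has 2 separate matches, and Ifit3 has 2 in its window, of which the one nearer the start is shown. Distances are counted from the transcript start of the RefSeq promoter table. For Oas3 that start is 120777659 and for Ifit3 it is 34583529, while the RefSeq gene records reach further upstream, to 120777684 and 34583119, so the Ifit3 stretch lies within its gene record. The distance between the transcript start and the end of the nearest match was 27 bases in Trim30a, 57 in Isg15, 66 in Oas3, 76 in Ifit1, 111 in Rsad2, 113 in Ifit3, 115 in Bst2 and 213 in Stat2.

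The 14 libraries held 4859099 to 10333892 counts and detected 13657 to 15312 genes. No member was at 0 in any library, and all 39 passed the low-count filter in every comparison. Levels are given as CPM, a gene's count scaled to the adjusted total of its library, as mean ± SD. Treg and T cell markers (9 genes, Foxp3 among them) summed to 4639 to 8917 CPM in TIL libraries and 2537 to 4049 CPM in Spleen libraries, with no marker at 0 in any group. Il23r, the targeted gene, was higher in the libraries labelled TIL Flox, at 0.641 ± 0.243 CPM (n = 3) against 0.0539 ± 0.108 CPM in TIL WT (n = 4), an exact 2-sided permutation p of 0.0286, the smallest that 3 against 4 libraries allow. In spleen it averaged 0.299 ± 0.429 CPM in the libraries labelled Spleen Flox and 0.0511 ± 0.102 CPM in Spleen WT (exact permutation p = 0.371, n = 3 and 4). These values rest on 17 counts against 2 in tumor and 10 against 2 in spleen. They go against the labels, the table does not show which exons the reads came from, and Flox and WT below are the labels of the libraries. Xist was lower and Y-linked genes were higher in each Flox-labelled group, so genotype label and these sex-linked reads cannot be told apart. Both WT replicate 2 libraries held reads of Xist and of the Y-linked Ddx3y. The Y-linked Uty, Kdm5d and Eif2s3y held 2.41, 2.81 and 3.45 CPM in Spleen WT 2. In TIL WT 2 they held only 0.216, 0.324 and 0.324 CPM.

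The clearest pattern in these genes was between tissues. In TIL Tregs 22 of the 39 members were higher than in spleen Tregs and 0 were lower at an adjusted p under 0.05 (edgeR quasi-likelihood test, Benjamini-Hochberg over 12008 genes). Among all genes tested 13.0% were higher and 11.2% were lower. The median log2 fold change of the members was 1.92, against 0.02 for all genes, and 32 of the 39 were positive. In 15 members every TIL library lay above every Spleen library, which held for 5.30% of all genes. In 0 members did every TIL library lie below, against 4.01% of all genes. A gene's higher count in a sorted population may come from more cells that express it or from more RNA per cell, and these cannot be told apart here.

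**Figure D1:**
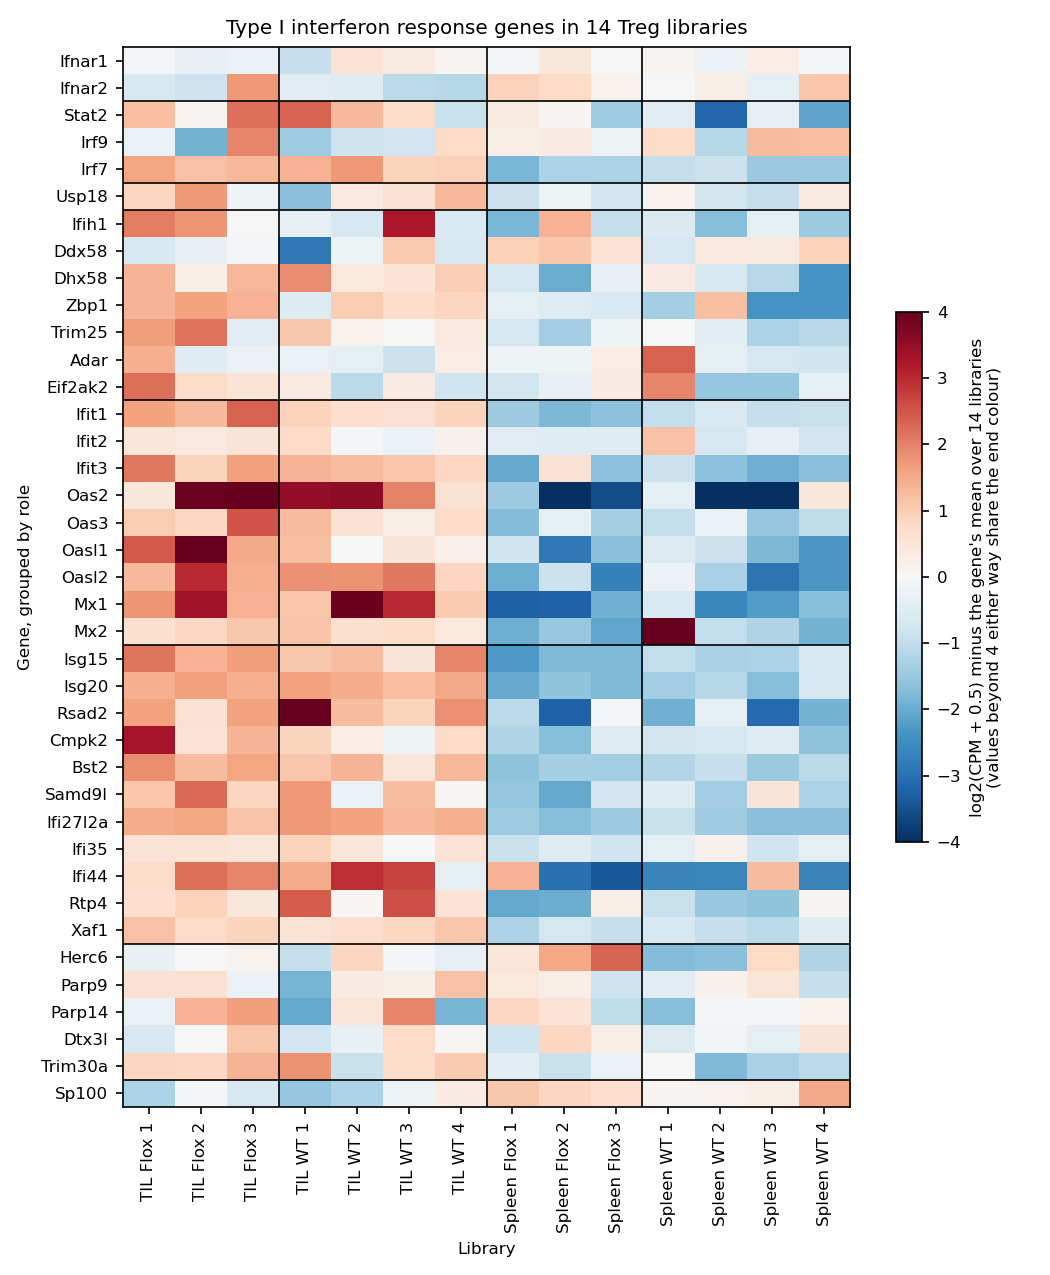
Level of each of the 39 genes (rows, grouped by role with black lines between roles) in each library (columns), as log2(CPM + 0.5) minus the gene's mean over the 14 libraries. Red is above and blue below that mean. The effector rows from Ifit1 to Xaf1 are mostly red in the 7 TIL columns and blue in the 7 Spleen columns, while Ifnar1, Irf9 and Dtx3l show no such split.

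Neither receptor chain passed the test between tissues. Ifnar1, the receptor chain that docks the kinase TYK2, lay between 379 and 1042 CPM in TIL libraries (median 699) and between 613 and 981 CPM in Spleen libraries (median 726), and the ranges overlap. Its log2 fold change was -0.04 ± 0.23 (SE; edgeR adjusted p = 0.912). Ifnar2, the chain that docks JAK1, had 8.39 to 63.8 CPM in TIL libraries (median 12.1) and 14.7 to 41.9 CPM in Spleen libraries (median 22.2). TIL Flox 3 held the 63.8 CPM and lay far above the other TIL libraries. The log2 fold change of Ifnar2 was -0.50 ± 0.46 (edgeR adjusted p = 0.465), and without TIL Flox 3 it was -1.20 (adjusted p = 0.0421).

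Among the signalling proteins, Irf7 and Stat2 were higher in TIL Tregs. Irf7, the factor that amplifies interferon transcription, lay between 36.3 and 65.2 CPM in TIL libraries (median 49.3) and between 5.06 and 10.3 CPM in Spleen libraries (median 7.71). The lowest TIL library was above the highest Spleen library, and the log2 fold change was 2.79 ± 0.32 (edgeR adjusted p = 0.000101). Stat2, the STAT that recruits IRF9 into ISGF3, had 115 to 1101 CPM in TIL libraries (median 497) and 23.8 to 273 CPM in Spleen libraries (median 157). Its ranges overlap through TIL WT 4, at 115 CPM, and TIL Flox 2, at 234 CPM, which lie below Spleen Flox 1 at 273 CPM. The log2 fold change of Stat2 was 2.08 ± 0.60 (edgeR adjusted p = 0.0244), and it missed the threshold without TIL Flox 3 (1.73, adjusted p = 0.0659), without Spleen Flox 2 (2.14, adjusted p = 0.0509) and without Spleen Flox 3 (1.87, adjusted p = 0.0625). Irf9, the DNA-binding part of ISGF3, had 20.9 to 309 CPM in TIL libraries and 35.7 to 191 CPM in Spleen libraries, with medians of 46.6 and 99.8 CPM. Its log2 fold change was -0.11 ± 0.60 (edgeR adjusted p = 0.912), and its sign turned when single libraries were left out. Usp18, the protease that shuts the receptor off, had 21.2 to 225 CPM in TIL libraries (median 105) and 35.3 to 89.1 CPM in Spleen libraries (median 41.7). Its log2 fold change of 1.21 ± 0.47 did not pass (edgeR adjusted p = 0.0798), and it did without TIL WT 1 (1.38, adjusted p = 0.0263).

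The antiviral effectors carried most of the difference. Of 9 genes of the IFIT, OAS and MX families, which bind foreign RNA, make the signal that activates RNase L or block viral assembly, 7 were higher and 0 were lower. All 9 log2 fold changes were positive, with a median of 2.74. Of 11 other effectors 10 were higher and 0 were lower, with a median of 2.55. Ifi44 was the one that did not pass, and Ifit2 and Mx2 were those of the 9.

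**Figure D2:**
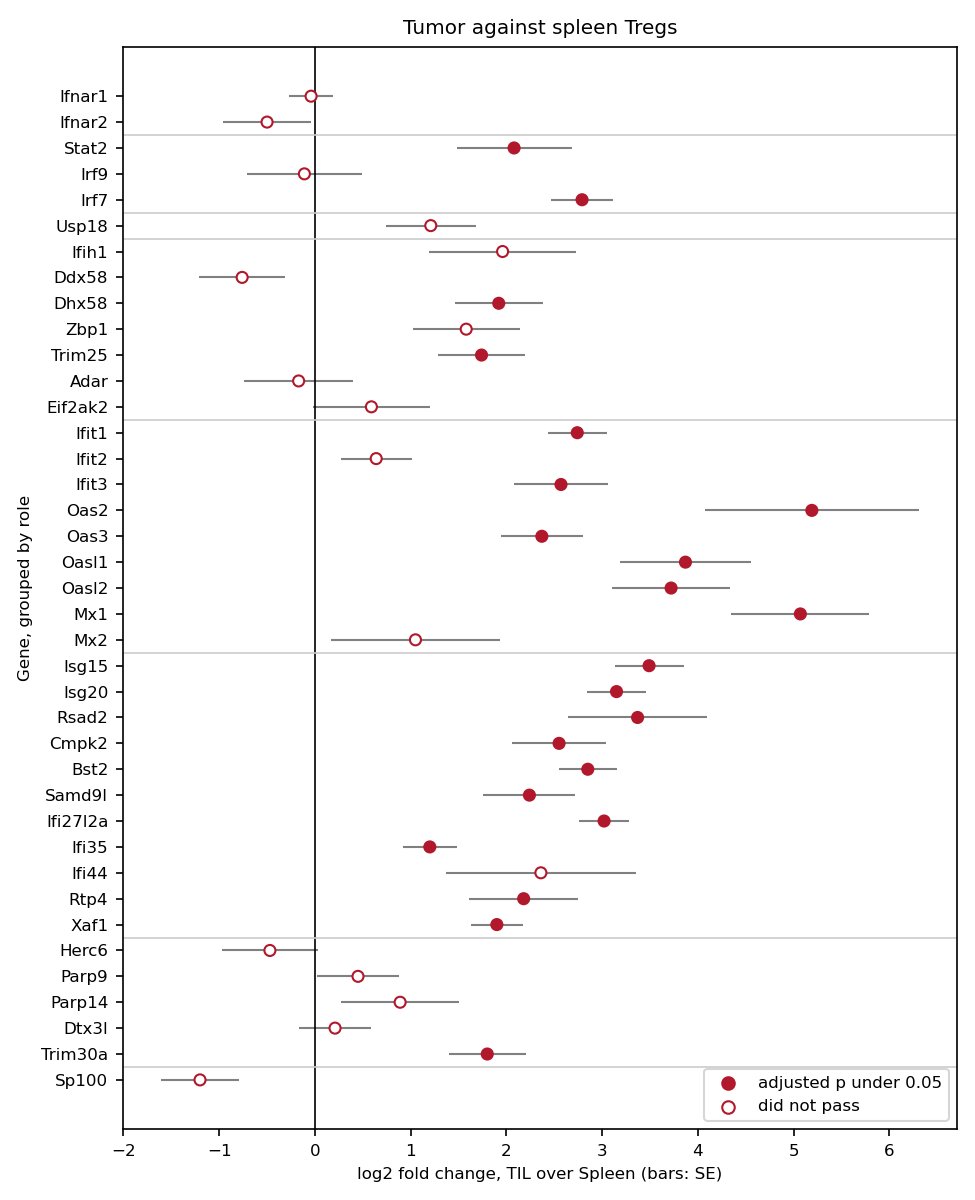
log2 fold change of TIL over Spleen libraries for each of the 39 genes, grouped by role, with SE bars (edgeR, 14 libraries). Filled points passed an adjusted p of 0.05. All 22 filled points lie right of 0, and the largest estimates are those of Oas2 at 5.19 and Mx1 at 5.07.

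Ifi27l2a, a short gene strongly induced by interferon, had the smallest p of the 39. It held 281 to 427 CPM in TIL libraries (median 358) and 38.8 to 68.3 CPM in Spleen libraries (median 46.2), with no overlap. The difference was 3.02 ± 0.26 on the log2 scale, or 8.11-fold (edgeR adjusted p = 1.94e-05). The neighbouring gene Ifi27 overlaps it in RefSeq and held 79 CPM in TIL and 62.1 CPM in Spleen libraries on average, so that the fold of the overlapping gene was far smaller.

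Isg20, an exonuclease that degrades single-stranded RNA, had 59.8 to 81.4 CPM in TIL libraries (median 71.8) and 5.91 to 15.5 CPM in Spleen libraries (median 7.96). The groups did not overlap, and the log2 fold change was 3.15 ± 0.31 (edgeR adjusted p = 4.61e-05). Isg15, a ubiquitin-like modifier, had 7.5 to 24 CPM in TIL libraries (median 14.1) and 0.633 to 3.09 CPM in Spleen libraries (median 1.77). This gene, whose promoter stretch above holds 3 overlapping ISRE matches, had a log2 fold change of 3.49 ± 0.36 (edgeR adjusted p = 5.38e-05), again without overlap. Bst2, or tetherin, which holds budding virus at the cell surface, had 18.2 to 48 CPM in TIL libraries (median 33) and 3.9 to 6.58 CPM in Spleen libraries (median 4.8). The 2 ranges are far apart, and the log2 fold change was 2.85 ± 0.30 (edgeR adjusted p = 6.66e-05).

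Ifit1, which binds RNA that lacks the host's cap methylation, had 23.1 to 79.5 CPM in TIL libraries (median 28.9) and 4.04 to 9.79 CPM in Spleen libraries (median 7.42). TIL Flox 3 was the highest, the groups did not overlap, and the log2 fold change was 2.74 ± 0.31 (edgeR adjusted p = 9.38e-05). The related gene Ifit1bl1 overlaps Ifit1 in RefSeq and ran the other way, at 109 CPM in TIL and 249 CPM in Spleen libraries on average. Because how shared reads were assigned is not given, the split of reads between these 2 genes is uncertain. Eif2ak2 and the predicted gene Gm6548 overlap as well, at 32.6 and 22.7 CPM for Eif2ak2 and 200 and 177 CPM for Gm6548 in TIL and Spleen libraries.

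The 2 largest folds among the members came with wider spread. Mx1, a gene of the MX family, had 26 to 194 CPM in TIL libraries and 0.844 to 7.94 CPM in Spleen libraries, a log2 fold change of 5.07 ± 0.72 (edgeR adjusted p = 0.000459). Oas2, a synthetase of the messenger that activates RNase L, had 50.9 to 839 CPM in TIL libraries and 0.818 to 50.6 CPM in Spleen libraries. Its lowest TIL library barely exceeded its highest Spleen library, and its log2 fold change was 5.19 ± 1.12 (edgeR adjusted p = 0.00569).

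Oasl2 (3.72 ± 0.62), Oasl1 (3.87 ± 0.68), Oas3 (2.37 ± 0.43), Ifit3 (2.57 ± 0.49), Rsad2 (3.37 ± 0.73), Cmpk2 (2.55 ± 0.49) and Xaf1 (1.90 ± 0.27) were likewise higher in every TIL library than in every Spleen library and passed the test, the values being log2 fold changes with SE. Rsad2 encodes viperin, which makes a chain-terminating nucleotide from the product of its neighbour Cmpk2, and Xaf1 encodes a pro-apoptotic protein. Samd9l (2.24 ± 0.48), Rtp4 (2.18 ± 0.57) and Ifi35 (1.20 ± 0.28) passed although their ranges overlapped.

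**Figure D3:**
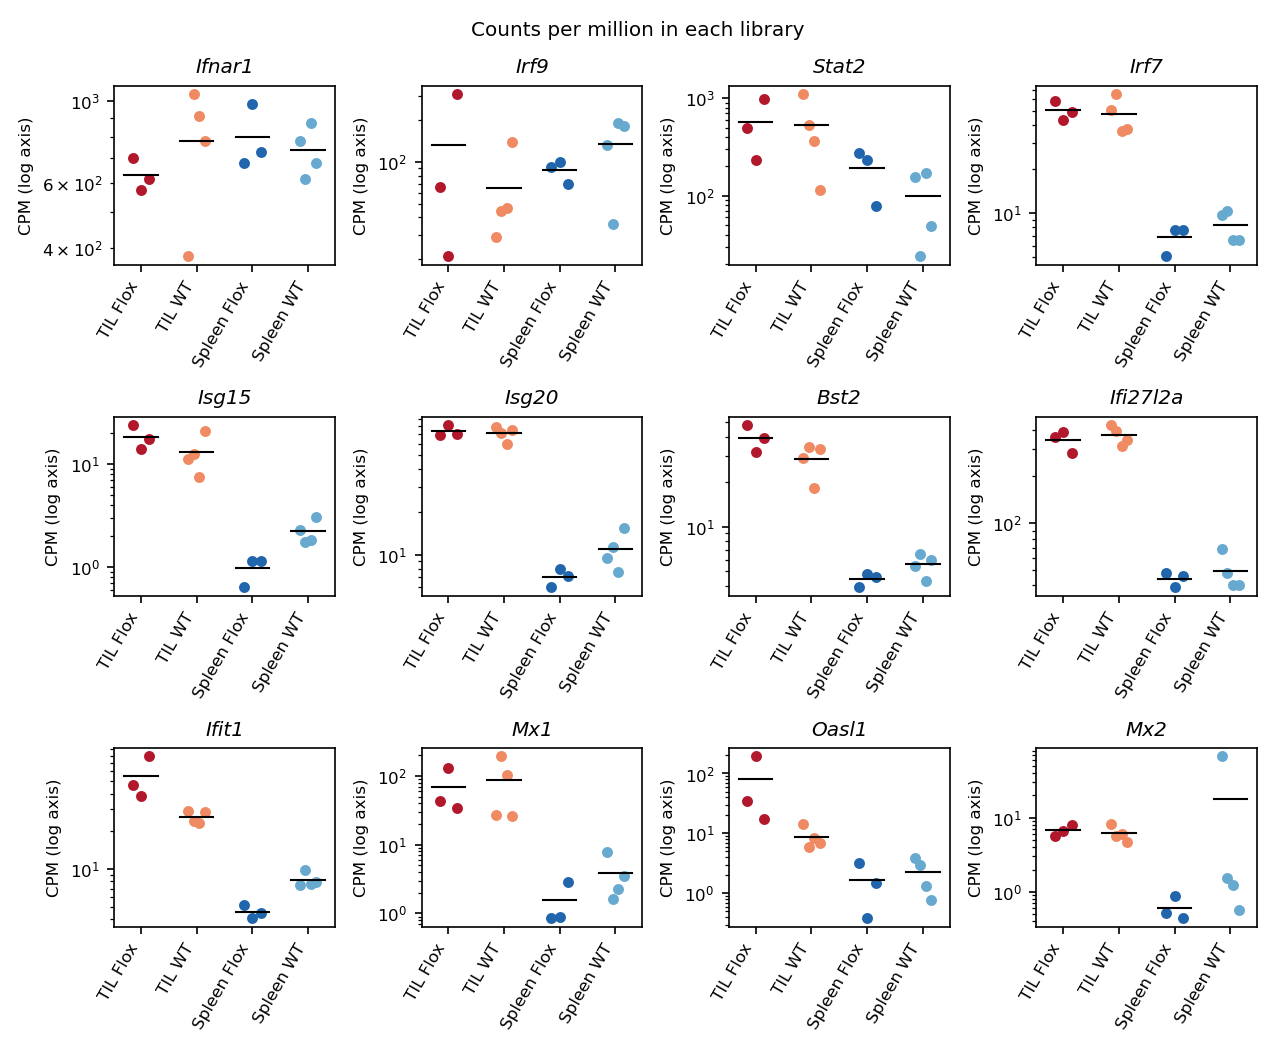
CPM of 12 of the genes in each library (log axis, scaled for each panel), with a black line at the mean of each group. Irf7, Isg15, Isg20, Bst2, Ifi27l2a, Ifit1, Mx1 and Oasl1 are higher in every TIL library than in every Spleen library. Ifnar1 and Irf9 overlap throughout, and in Mx2 only Spleen WT 1, at 67.3 CPM, lies above the TIL libraries.

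Each of the 3 effectors that did not pass did so when 1 spleen library was left out. Mx2, the sister gene of Mx1, had 4.76 to 8.23 CPM in TIL libraries. In Spleen libraries it had 0.439 to 1.52 CPM, except for 67.3 CPM in Spleen WT 1. The log2 fold change of Mx2, 1.05 ± 0.88 (edgeR adjusted p = 0.413), became 3.03 without Spleen WT 1 (adjusted p = 0.000268). Ifit2, a partner of Ifit1 in RNA-binding complexes, held 24.3 CPM in the same library, and its log2 fold change of 0.64 ± 0.37 became 0.99 without it (edgeR adjusted p = 0.229 and 0.0288). Ifi44 had 13.6 to 139 CPM in TIL libraries. In Spleen libraries it held 1.23 to 2.49 CPM, except for 47.2 CPM in Spleen Flox 1 and 42.8 CPM in Spleen WT 3. The log2 fold change of Ifi44 was 2.36 ± 0.99 (edgeR adjusted p = 0.102), and it passed without either of them (4.08 without Spleen Flox 1, adjusted p = 0.0181, and 3.54 without Spleen WT 3, adjusted p = 0.0171).

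Of 7 sensors of nucleic acid and their cofactors 2 were higher and 0 were lower. Dhx58, or LGP2, which tunes the other RNA helicase sensors, had 285 to 890 CPM in TIL libraries (median 477) and 45.2 to 305 CPM in Spleen libraries (median 153), a log2 fold change of 1.92 ± 0.46 (edgeR adjusted p = 0.00971). Trim25, a ubiquitin ligase that acts with RIG-I, had 25 to 153 CPM in TIL libraries and 12.3 to 32.8 CPM in Spleen libraries, a log2 fold change of 1.74 ± 0.45 (edgeR adjusted p = 0.014). Both genes overlapped between tissues. Ddx58, which encodes RIG-I itself, had 35.5 to 535 CPM in TIL libraries (median 210) and 163 to 559 CPM in Spleen libraries (median 390). The estimate for Ddx58, -0.76 ± 0.45 on the log2 scale, did not pass (edgeR adjusted p = 0.241).

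Zbp1, a sensor of left-handed nucleic acid, had 61.8 to 276 CPM in TIL libraries and 16.9 to 68.8 CPM in 6 of the 7 Spleen libraries, with 209 CPM in Spleen WT 2. With that library the log2 fold change of 1.58 ± 0.56 did not pass (edgeR adjusted p = 0.0568), and it was 2.38 without Spleen WT 2 (adjusted p = 0.00095). Ifih1, which encodes the RNA sensor MDA5, had 22.8 to 347 CPM in TIL libraries (median 36.1) and 9.6 to 95.1 CPM in Spleen libraries (median 18). The 347 CPM lay in TIL WT 3. The log2 fold change of Ifih1 was 1.96 ± 0.77 (edgeR adjusted p = 0.0815), and it was 2.76 without Spleen Flox 2, the highest Spleen library (adjusted p = 0.0367). Over 21 alternative fits it ran from 0.96 to 2.76 and passed in 2. Eif2ak2, the kinase PKR that halts translation, and Adar, which edits double-stranded RNA, had log2 fold changes of 0.59 ± 0.61 and -0.17 ± 0.57 and did not pass.

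Of 5 ubiquitin and ADP-ribose enzymes Trim30a was higher and 0 were lower. Trim30a, which dampens Toll-like receptor signalling in the mouse, had 409 to 2614 CPM in TIL libraries (median 1368) and 225 to 769 CPM in Spleen libraries (median 408), a log2 fold change of 1.80 ± 0.40 (edgeR adjusted p = 0.00613). Parp9 and Dtx3l, which form one enzyme complex, had log2 fold changes of 0.45 ± 0.43 and 0.21 ± 0.38. Parp14, an ADP-ribosyltransferase, had 0.89 ± 0.62, and Herc6, the ligase that attaches ISG15 in the mouse, had -0.47 ± 0.50. None of these 4 passed (edgeR adjusted p between 0.319 and 0.725). Sp100, a nuclear body protein, had the most negative log2 fold change of the 39, at -1.20 ± 0.41 (edgeR adjusted p = 0.0503). It held 20.3 to 75.6 CPM in TIL libraries and 65.7 to 172 CPM in Spleen libraries, and it passed without TIL WT 4 (-1.42, adjusted p = 0.0236).

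Of the 22 genes, 20 also passed in each of 21 alternatives fitted on both genotypes, and Stat2 and Trim25 were the exceptions. Among members that did not pass, Zbp1 was higher in 5 of the 21 and Ifi44 in 4. Usp18 and Ifih1 were higher in 2 each, and Ifit2 and Mx2 in 1 each. Sp100 was lower in 3 and Ifnar2 in 1. Within one genotype alone the libraries are fewer. In Flox libraries 14 members were higher in TIL, against 4.15% of all 10760 tested, with a median log2 fold change of 2.01. In WT libraries 11 were higher, against 3.90% of all 10560 tested, with a median of 1.73. Bst2, Ifi27l2a, Ifit1, Irf7, Isg15, Isg20, Mx1, Oasl2 and Xaf1, 9 genes, passed in both genotypes, which share no library. Log2 fold changes were positive in both genotypes for 30 members. The share of all genes that passed, or were positive, in both genotypes was not measured, so these 2 counts are a description. Taken singly, 35 of 39 members were positive in Flox libraries, against 5531 of 10760 genes. In WT libraries 32 of 39 were positive, against 5437 of 10560 genes.

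The levels per length of exon give an order of abundance. In TIL libraries the highest mean levels were those of Ifi27l2a at 770 CPM per kilobase, Trim30a at 367, Dhx58 at 155 and Ifnar1 at 120. In Spleen libraries Ifnar1 came first at 128 CPM per kilobase, Trim30a had 113, Ifi27l2a had 102 and Ddx58 had 56.5. Isg15, one of the 13 lowest in spleen, had 20.4 CPM per kilobase in TIL libraries, close to Mx1 at 21.2. Oasl2 was the lowest in Spleen libraries, at 0.401 CPM per kilobase.

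Members low in spleen had the larger folds. The 13 members highest per length in Spleen libraries (13.4 to 128 CPM per kilobase) had a median log2 fold change of 0.89, and 4 of them were higher in TIL. The middle 13 (3.16 to 8.30 CPM per kilobase) had a median of 1.96 with 8 higher, and the lowest 13 (0.401 to 2.87 CPM per kilobase) had a median of 2.74 with 10 higher. Across the 39 genes the log2 fold change and the log2 spleen level had a Pearson r of -0.53 and a Spearman rho of -0.58. This is a description, because the spleen level enters both measures and genes are not independent replicates.

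**Figure D4:**
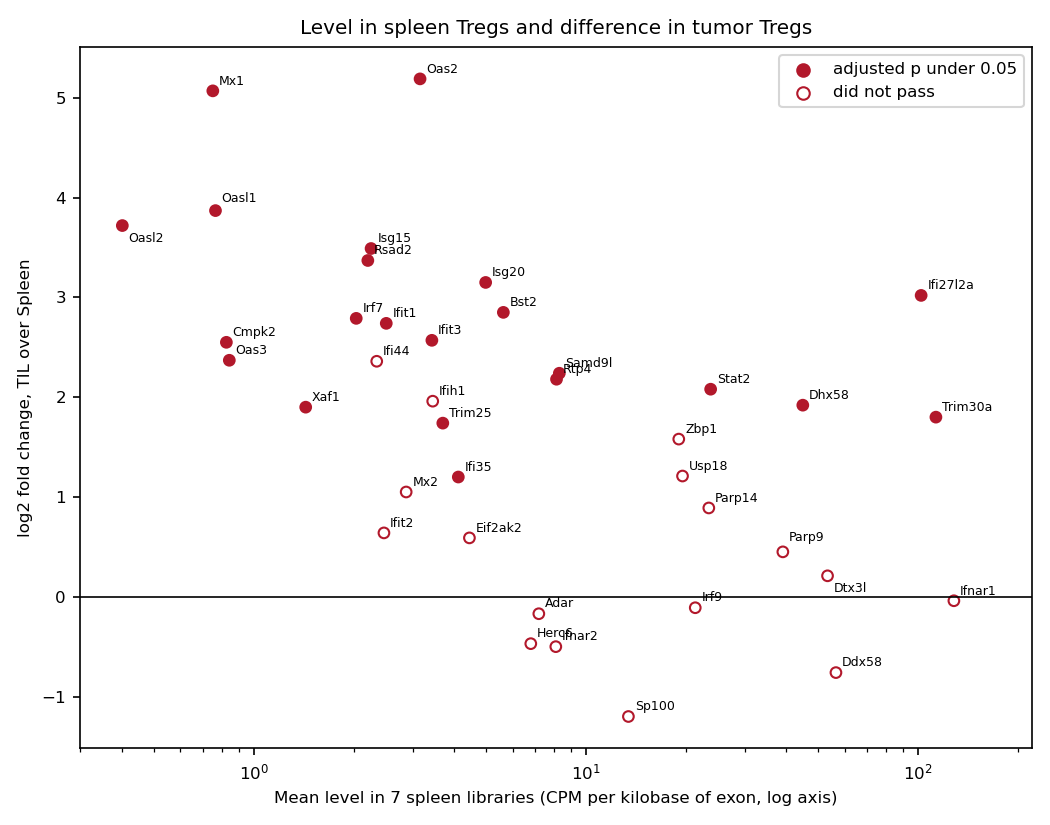
log2 fold change of TIL over Spleen against the mean level in the 7 Spleen libraries (CPM per kilobase of exon, log axis), 1 point a gene. Filled points passed an adjusted p of 0.05. Mx1, Oasl1 and Oasl2, at the low end, lie above 3.5, and Ifi27l2a, at 102 CPM per kilobase and 3.02, stands apart from other abundant genes such as Ifnar1 and Ddx58.

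All 8 genes whose ISRE is printed above were higher in TIL Tregs. Their log2 fold changes ran from 1.80 in Trim30a to 3.49 in Isg15, with a median of 2.66. Of the 21 members with a promoter in the table and no match, 9 were higher, with a median of 1.20, Irf7, Isg20, Oasl1 and Oasl2 among them. The other 10 had no promoter in the table (median 1.75, 5 higher). The groups were not tested against each other.

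The members differed widely in how tightly replicates agreed. The SD of log2(CPM + 0.5) within groups had a median of 0.87 over the members, against 0.93 over all genes tested, from 0.25 in Xaf1 to 2.05 in Oas2. It went with exon length across the 39 genes (Pearson r = 0.47, Spearman rho = 0.40, given as a description) and hardly with mean level (r = 0.04). Oas2 in TIL Flox libraries held 50.9, 577 and 839 CPM, for example, while Isg20 held 69.9, 81.4 and 70.4 CPM in the same libraries. The SE of the log2 fold change between tissues was 0.31 for Isg20, whose exons span 1860 bases, and 1.12 for Oas2, whose exons span 4451 bases. Against that relation, the exons of Xaf1 span 4689 bases, and its SE was 0.27.

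Markers of other cells were measured beside this difference, and their part in it was not tested. The 8 B cell markers summed to 2.79 to 105 CPM in TIL libraries and 255 to 1869 CPM in Spleen libraries, and 7 of 7 tested were lower in TIL. The 11 macrophage and monocyte markers summed to 19.2 to 176 CPM in TIL libraries and 10.1 to 262 CPM in Spleen libraries, and 5 of 10 tested were higher in TIL. Adgre1 made most of both upper values, at 143 CPM in TIL WT 2 and 200 CPM in Spleen WT 2. The plasmacytoid dendritic cell markers other than Bst2 summed to 2.16 to 163 CPM in TIL libraries and 9.82 to 89.7 CPM in Spleen libraries, and Ly6d and Klk1 were at 0 in every TIL library. The 163 CPM lay in TIL Flox 3, where Tcf4 alone held 162 CPM. Ccr9 and Ly6d of this list were lower in TIL.

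The 6 dendritic cell markers summed to 5.90 to 28.7 CPM in TIL libraries and 0.818 to 55.6 CPM in Spleen libraries. Single genes made most of both upper values, Xcr1 at 22.6 CPM in TIL WT 3 and Itgax at 54 CPM in Spleen Flox 1. Zbtb46, a factor of classical dendritic cells, was higher in TIL (log2 fold change 3.69 ± 0.60, edgeR adjusted p = 0.00109), 1 of 3 tested. Xcr1 had a positive estimate (2.46 ± 0.93, edgeR adjusted p = 0.0712) and Itgax a negative one (-1.99 ± 0.81, edgeR adjusted p = 0.0932). The 4 CD8 and NK markers summed to 2.02 to 8.24 CPM in TIL libraries and 3.03 to 38.6 CPM in Spleen libraries, and 1 of 3 tested, Klrb1c, was lower in TIL, where it was at 0 in every library. The 5 neutrophil markers summed to 0.144 to 166 CPM in TIL libraries and 0.379 to 53 CPM in Spleen libraries, and 0 of 3 tested passed. Csf3r alone held 165 CPM of the 166 CPM, in TIL Flox 2. The 8 carcinoma and stroma markers summed to 38.4 to 268 CPM in TIL libraries and 60.4 to 176 CPM in Spleen libraries, with 3 of 5 tested higher and 1 lower in TIL. Most of each spleen sum was Pecam1, at 55.9 to 169 CPM. The 3 higher genes were collagens. Col3a1 held 29.4 ± 29.6 CPM in TIL and 0.191 ± 0.281 CPM in Spleen libraries (log2 fold change 7.20 ± 1.12). For Col1a1 these levels were 9.82 ± 9.93 and 0.267 ± 0.306 CPM, and for Col1a2 4.69 ± 5.39 and 0.0974 ± 0.115 CPM. The 12 genes of the immediate early and heat shock list summed to 1396 to 2972 CPM in TIL libraries and 1035 to 1831 CPM in Spleen libraries. Of these 12 genes 3 were higher in TIL. Whether tissue handling had a part in their level was not tested.

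Between genotypes in tumor, 0 of the 39 members passed (edgeR adjusted p between 0.584 and 0.995), nor did any of 10777 genes tested (0%). The members' log2 fold changes of TIL Flox over TIL WT had a median of 0.26, against -0.06 for all genes, and 28 of 39 were positive. At an unadjusted p under 0.05 there were 2 members, both higher in TIL Flox, against 8.08% of all genes. Every TIL Flox library lay above every TIL WT library in 4 members (Oasl1, Eif2ak2, Ifit1 and Zbp1), against 2.49% of all genes, and below in 0 members, against 2.71%. The median of log2(CPM + 0.5) over the 39 genes was 6.05, 6.09 and 5.93 in the TIL Flox libraries and 5.05, 5.49, 5.56 and 5.46 in the TIL WT libraries, without overlap. Over all tested genes the same median was 2.93, 3.02 and 2.94 in the TIL Flox libraries and 2.82, 3.07, 3.10 and 2.85 in the TIL WT libraries, which overlap. In spleen the medians of the 39 genes overlapped, at 3.76, 4.02 and 4.50 in the Spleen Flox libraries and 4.64, 3.56, 3.81 and 4.00 in the Spleen WT libraries.

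Oasl1, an OAS-like protein that restrains translation of Irf7 in the mouse, had 34.2, 195 and 17.5 CPM in TIL Flox libraries and 14.1, 5.82, 8.51 and 6.80 CPM in TIL WT libraries. TIL Flox 2 stood far above the rest, and the groups did not overlap. The log2 fold change of Oasl1 was 3.21 ± 0.93 (edgeR adjusted p = 0.584). DESeq2 called it (adjusted p = 0.0123), and the log2 fold change was 1.55 without TIL Flox 2.

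Cmpk2, a mitochondrial nucleotide kinase, had 73.2, 10.3 and 18.8 CPM in TIL Flox libraries and 13.4, 8.74, 5.91 and 12.1 CPM in TIL WT libraries. Its groups overlapped through TIL Flox 2, and TIL Flox 1 was the high library. The log2 fold change was 1.76 ± 0.74 (edgeR adjusted p = 0.584), and 0.54 without TIL Flox 1.

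Ifit1 had 47.2, 38.2 and 79.5 CPM in TIL Flox libraries and 28.9, 24.3, 23.1 and 28.3 CPM in TIL WT libraries. The groups did not overlap, the WT-labelled libraries lay close together, and the log2 fold change was 1.07 ± 0.51 (edgeR adjusted p = 0.584). Eif2ak2 had 94.3, 33.1 and 29.5 CPM in TIL Flox libraries and 25.8, 9.17, 24.9 and 11.2 CPM in TIL WT libraries, a log2 fold change of 1.55 ± 0.69 (edgeR adjusted p = 0.584). Zbp1 had 236, 276 and 241 CPM in TIL Flox libraries and 61.8, 182, 151 and 165 CPM in TIL WT libraries, a log2 fold change of 0.85 ± 0.53 (edgeR adjusted p = 0.64). In both genes TIL Flox was above TIL WT throughout.

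The receptor and signalling genes gave no call in tumor. Ifnar2 had 12.1, 10.5 and 63.8 CPM in TIL Flox libraries and 13.9, 13.4, 8.8 and 8.39 CPM in TIL WT libraries, and its log2 fold change of 1.38 ± 0.72 was 0.03 without TIL Flox 3. The log2 fold changes were -0.30 ± 0.42 for Ifnar1, 0.13 ± 0.80 for Stat2, 1.03 ± 1.00 for Irf9, 0.09 ± 0.51 for Irf7, 0.50 ± 0.49 for Isg15 and 0.49 ± 0.80 for Usp18. All of these had an edgeR adjusted p of 0.59 or more, and the signs of Stat2, Irf9, Irf7 and Usp18 turned when single libraries were left out.

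Macrophage and monocyte markers had positive log2 fold changes in 7 of 10 genes tested, none of which passed, and their part in these values was not tested. They summed to 53.6 to 100 CPM in TIL Flox libraries and 19.2 to 176 CPM in TIL WT libraries. Adgre1 alone held 143 CPM of the 176 CPM, in TIL WT 2, and 0.549 to 1.15 CPM in the other TIL WT libraries. Cd68, a lysosomal protein of macrophages, had the smallest p of the list (log2 fold change 2.87 ± 0.54, edgeR adjusted p = 0.584). It held 15.4, 16.2 and 30.1 CPM in TIL Flox libraries and 1.25 to 4.47 CPM in TIL WT libraries, without overlap. Plasmacytoid dendritic cell markers other than Bst2 summed to 13.1 to 163 CPM in TIL Flox libraries and 2.16 to 12.2 CPM in TIL WT. Nearly all of the TIL Flox sums was 1 gene, Tcf4, at 21.9, 12 and 162 CPM. Ccr9 held 0.101, 1.01 and 0.211 CPM in TIL Flox libraries and up to 4.31 CPM in TIL WT. Siglech, Ly6d and Klk1 were at 0 in TIL Flox. Neutrophil markers summed to 0.603 to 166 CPM in TIL Flox libraries and 0.144 to 2.59 CPM in TIL WT libraries. The 166 CPM lay in TIL Flox 2, where Csf3r alone held 165 CPM and S100a8 and S100a9 were at 0. In TIL Flox 3 S100a8 held 6.97 CPM and S100a9 held 10.9 CPM. Immediate early and heat shock genes summed to 1396 to 1748 CPM in TIL Flox libraries and 1605 to 2972 CPM in TIL WT libraries.

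**Figure D5:**
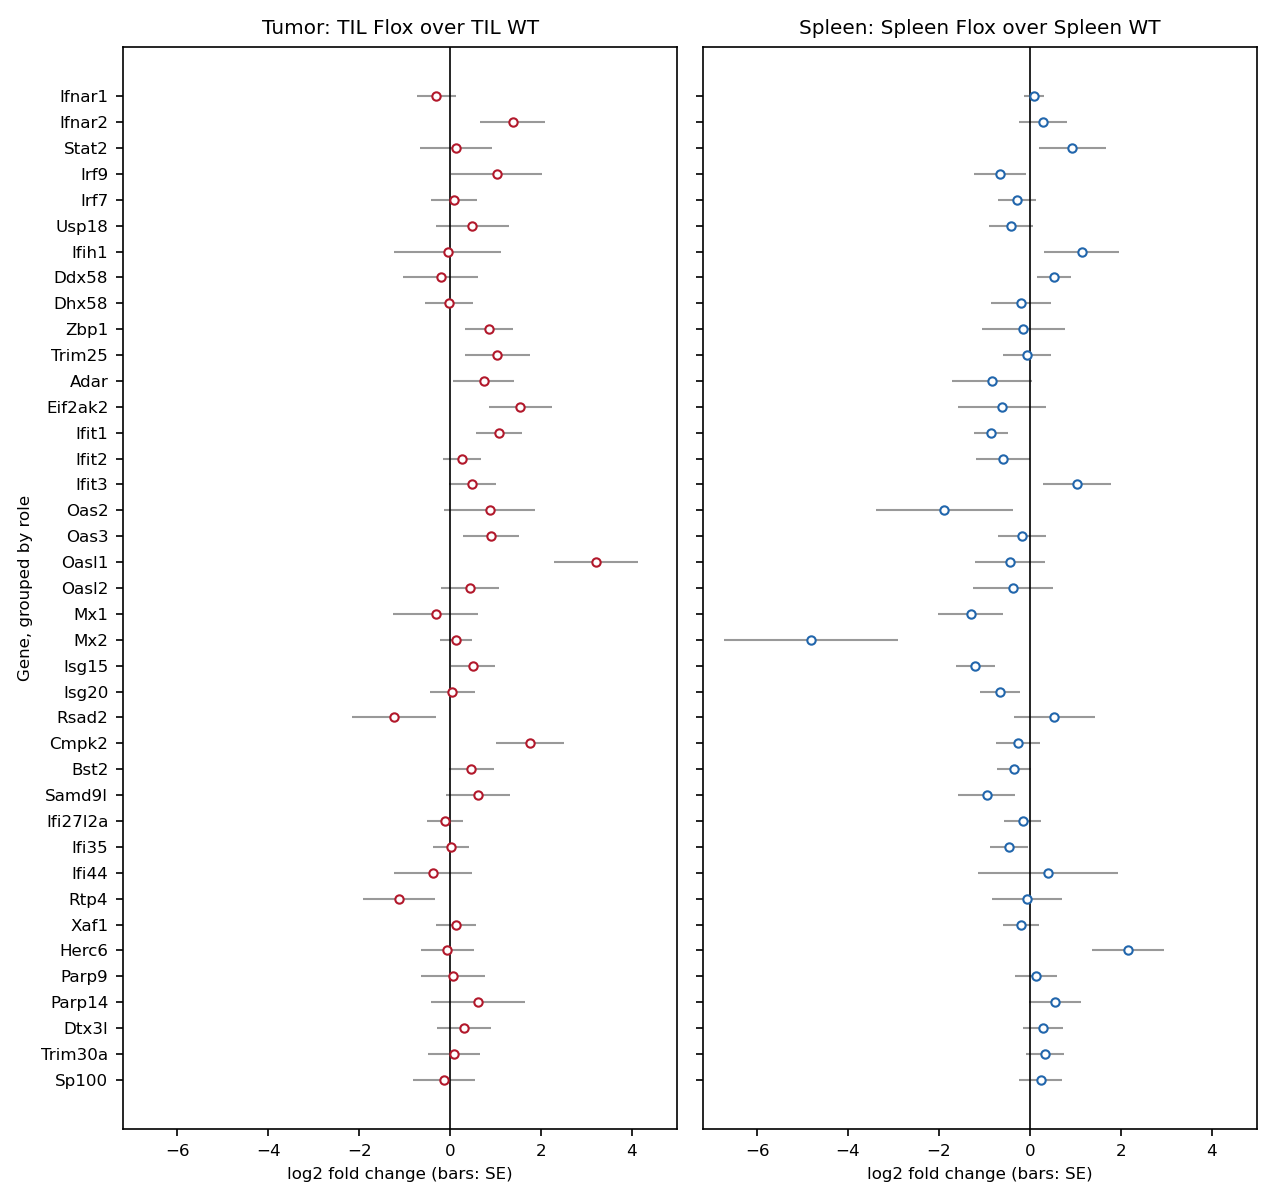
log2 fold change of Flox over WT libraries for each of the 39 genes with SE bars, in tumor (left, edgeR on 7 libraries) and in spleen (right, edgeR on 7 libraries). No point passed an adjusted p of 0.05 in either tissue. In tumor 28 of 39 points lie right of 0, with Oasl1 at 3.21 the farthest, and in spleen 14 of 39 do, with Mx2 at -4.82 the farthest to the left.

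In spleen 0 of the 39 members passed either (edgeR adjusted p between 0.674 and 0.994), and 0 of 10935 genes did (0%). The median log2 fold change of Spleen Flox over Spleen WT was -0.19, against -0.06 for all genes, and 14 of 39 were positive. At an unadjusted p under 0.05 there were 3 members, against 6.86% of all genes, of which 2 were lower and 1 was higher in Spleen Flox. Every Spleen Flox library lay below every Spleen WT library in 2 members (Isg15 and Ifit1), against 3.01% of all genes, and above in 0 members, against 2.96%.

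Isg15 had 0.633, 1.14 and 1.14 CPM in Spleen Flox libraries and 2.3, 1.77, 1.84 and 3.09 CPM in Spleen WT libraries. The groups did not overlap at these low levels, and the log2 fold change was -1.20 ± 0.43 (edgeR adjusted p = 0.674). Ifit1 had 5.17, 4.04 and 4.48 CPM in Spleen Flox libraries and 7.42, 9.79, 7.56 and 7.92 CPM in Spleen WT libraries, with a log2 fold change of -0.85 ± 0.38 (edgeR adjusted p = 0.674). Its WT-labelled spleen libraries lay as close together as those of tumor, and again without overlap.

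Herc6 had 51.1, 107 and 184 CPM in Spleen Flox libraries and 10.5, 11.1, 63.5 and 15.5 CPM in Spleen WT libraries. The groups overlapped through Spleen WT 3, and the log2 fold change was 2.16 ± 0.79 (edgeR adjusted p = 0.674). Mx2 had 0.527, 0.885 and 0.439 CPM in Spleen Flox libraries and 67.3, 1.52, 1.23 and 0.58 CPM in Spleen WT libraries. Its log2 fold change of -4.82 ± 1.91 (edgeR adjusted p = 0.674) has Spleen WT 1 as its one high library, the groups overlapped, and without that library Mx2 fell under the low-count filter. Mx1 (-1.30 ± 0.72) and Samd9l (-0.95 ± 0.63), a translation repressor in human cells, followed in order of p.

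The receptor and signalling genes gave no call in spleen. Their log2 fold changes were 0.10 ± 0.22 for Ifnar1, 0.29 ± 0.52 for Ifnar2, 0.94 ± 0.74 for Stat2, -0.65 ± 0.57 for Irf9, -0.29 ± 0.42 for Irf7 and -0.41 ± 0.49 for Usp18 (edgeR adjusted p of 0.784 or more). B cell and macrophage markers ran lower in Spleen Flox without passing the test, and the part of other cells in these values was not tested. B cell markers summed to 255 to 387 CPM in Spleen Flox libraries and 344 to 1869 CPM in Spleen WT libraries, with 7 of 7 tested log2 fold changes negative. Macrophage and monocyte markers summed to 10.1 to 22.4 CPM in Spleen Flox libraries and 28.8 to 262 CPM in Spleen WT libraries, again with 7 of 7 negative. Adgre1 alone held 200 CPM of the 262 CPM, in Spleen WT 2. Dendritic cell markers summed to 3.07 to 55.6 CPM in Spleen Flox libraries and 0.818 to 4.33 CPM in Spleen WT libraries. Itgax, the only one tested, held 54, 6.57 and 0.966 CPM in the Spleen Flox libraries, so the 55.6 CPM was nearly this gene alone. Zbtb46 held 0.253 to 0.422 CPM in Spleen Flox and 0 to 1.55 CPM in Spleen WT libraries. Plasmacytoid dendritic cell markers summed to 33.1 to 59.5 CPM in Spleen Flox and 9.82 to 89.7 CPM in Spleen WT libraries. With edgeR none of these markers passed.

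The test of whether the genotype difference itself differed between tissues called 0 of the 39 members (edgeR adjusted p between 0.425 and 0.999), and 0 of 12008 genes (0%). The difference, the log2 fold change in tumor minus that in spleen, had a median of 0.71 over the members, against 0.02 over all genes, and 27 of 39 were positive. At an unadjusted p under 0.05 there were 6 members, against 10.8% of all genes, of which 5 were positive and 1 was negative.

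Ifit1 had the smallest p of these, with a difference of 1.94 ± 0.58 (edgeR adjusted p = 0.425), and DESeq2 called it (adjusted p = 0.0155). Every Flox-labelled library was above every WT-labelled one in tumor, and every one was below in spleen. The difference was 3.64 ± 1.26 for Oasl1, 4.98 ± 1.84 for Mx2, 1.70 ± 0.66 for Isg15, 2.02 ± 0.93 for Cmpk2 and -2.22 ± 1.02 for Herc6 (unadjusted p between 0.0125 and 0.0489). The difference for Mx2 was 1.01 without Spleen WT 1, that for Oasl1 was 2.01 without TIL Flox 2, and that for Cmpk2 was 0.80 without TIL Flox 1.

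Genes of the same pathway outside the 39 are read against the same background of 13.0% higher and 11.2% lower. Of 45 other interferon-stimulated genes 15 were higher and 0 were lower in TIL, with a median log2 fold change of 0.87. Ifitm3, which blocks viral entry at endosomes, had 30.6 ± 15.1 CPM in TIL and 1.50 ± 0.922 CPM in Spleen libraries (log2 fold change 4.62 ± 0.46, edgeR adjusted p = 4.61e-05, n = 7 each). Ube2l6, the conjugating enzyme for ISG15, had 22.1 ± 4.79 CPM in TIL and 4.65 ± 1.89 CPM in Spleen libraries (log2 fold change 2.34 ± 0.34, edgeR adjusted p = 0.000558, n = 7 each). Of 15 signalling genes and negative regulators 2 were higher and 1 was lower, a share near the background. Stat3, a transcription factor of cytokine signalling, had 720 ± 244 CPM in TIL and 249 ± 70.1 CPM in Spleen libraries (log2 fold change 1.56 ± 0.27, edgeR adjusted p = 0.00151, n = 7 each), and Irf8, a factor of myeloid and lymphoid cells, was higher too (1.90 ± 0.64, adjusted p = 0.0455). Ptpn6, the phosphatase SHP-1, was lower, at 35.7 ± 30.9 CPM in TIL and 110 ± 24.8 CPM in Spleen libraries (log2 fold change -1.75 ± 0.44). Of 15 tested sensing adaptors 2 were higher, again near the background, and 0 were lower. The 2 were the endosomal RNA receptor Tlr3 and the DNA sensor family member Ifi204.

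Between genotypes 0 genes of these 3 lists passed in tumor or in spleen (edgeR). In tumor the smallest p values were those of Pnpt1 (log2 fold change 1.94 ± 0.53) and Uba7, the activating enzyme for ISG15, at 314 ± 248 CPM in TIL Flox and 33.9 ± 7.60 CPM in TIL WT libraries (log2 fold change 3.21 ± 0.89, edgeR adjusted p = 0.584, n = 3 and 4). In spleen it was that of Phf11d, at 23.8 ± 18.1 CPM in Spleen Flox and 0.891 ± 0.304 CPM in Spleen WT libraries (log2 fold change 4.73 ± 0.68, edgeR adjusted p = 0.279, n = 3 and 4).

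RNA of the interferons themselves was barely detected in the sorted cells. Of 17 type I interferon genes in the table, 3 had a count, with 1 count in all TIL libraries together and 7 in all Spleen libraries together. The genes without a count, Ifnb1 among them, allow at most 3 counts in a library, or 0.241 to 0.580 CPM.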

How the data were processed

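Whole-number read counts, with no scaling applied, were deposited by the authors for 14 libraries in 1 table. Libraries followed an ultra-low-input procedure after extraction with an RNeasy Plus micro kit, per the labels' protocols, and the molecule is given as polyA RNA. The submitters' processing notes name the build mm10. The sources used here do not give the aligner, counter, annotation or strand setting, so reads of overlapping genes could not be separated, and 16 of the 39 members overlap another RefSeq gene. Gene numbers were matched to RefSeq (25275 IDs) and GENCODE M21 (18 IDs), and 1886 IDs, which held 1.25 to 1.94% of the counts, were tested unnamed.

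Counts were tested with edgeR 4.0.16 in R 4.3.3 (quasi-likelihood F test, TMM, filterByExpr by group) on the whole table, and adjusted p-values (Benjamini-Hochberg, every tested gene) were read at 0.05. The 7 libraries of a tissue entered each genotype test, and all 14 entered the tissue test and the test of the difference. The SE is the absolute log2 fold change divided by the square root of F. CPM are counts over TMM-adjusted totals, and levels per kilobase use the GENCODE exon union. Single values were compared with exact permutation tests. The members, the lists and the rule for named genes were chosen with earlier results of these data known. Described in full were the 6 members with the smallest p in each test, plus Ifnar1, Ifnar2, Stat2, Irf9, Irf7, Isg15, Ifit1 and Usp18. Other pathway genes were named by the smallest p, at most 3 a list. Further members were named after their values were seen, to account for each role.

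Alternatives were DESeq2 1.42.0, limma 3.58.1 voom with sample quality weights, no filter, RLE factors, a minimum of 5 CPM in 3 libraries, a replicate block, 1 fit of all libraries, single genotypes, and libraries left out. Tests were tested on simulated data. Libraries of a group did not duplicate each other (chi-square per degree of freedom 92.1 to 391). Mitochondrial symbols, 9 in all, did not match and were not analysed here, and 1 signalling gene is not reported here. Scaling by RLE shifted the median log2 fold change of all genes between tissues to 0.059, against 0.018 by TMM. Intervals and floors cover counting error only.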

Additional observations from a re-analysis of the deposited data

Results flagged for a closer look

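In 11 of 78 groups of 4 WT-labelled libraries 1 library stood apart from the other 3, in each case above them. For normally distributed values a gap of this size arises by chance in about 1 of 20 such groups. The gaps were taken on CPM without a log transform, so that rate need not hold here. The share over all genes was not measured, and no excess is read from the count. Spleen WT 1 was the one for 4 genes, with 210 CPM of Adar (23 to 30.7 CPM in the other 3), 78.8 CPM of Eif2ak2 (6.34 to 15.1), 24.3 CPM of Ifit2 (5.99 to 8.28) and 67.3 CPM of Mx2 (0.58 to 1.52). Spleen WT 3 held 42.8 CPM of Ifi44 (2.32 to 2.49) and 63.5 CPM of Herc6 (10.5 to 15.5). Spleen WT 2 held 209 CPM of Zbp1 (16.9 to 35.1), and Spleen WT 4 held 172 CPM of Sp100 (65.7 to 71). In tumor, TIL WT 1 held 374 CPM of Rsad2 (43.4 to 83.6), TIL WT 3 held 347 CPM of Ifih1 (22.8 to 28.3) and TIL WT 4 held 139 CPM of Irf9 (29.1 to 46.6).

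Ifit1 differed between tissues in its genotype contrast by 1.94 on the log2 scale. All 3 Flox-labelled libraries were above all 4 WT-labelled ones in tumor, and all 3 were below all 4 in spleen. The test of this difference gave an edgeR adjusted p of 0.425 over all genes.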

How the results depend on the processing

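Between tissues, 22 members higher became 11 in WT libraries alone and 14 in Flox libraries alone, where the libraries are fewer, and 21 to 24 with single libraries left out, and DESeq2 called 25 and voom 24. Members lower, 0 in the fit reported, numbered 1 with DESeq2, 1 with voom and 0 to 1 with single libraries left out. Of all 12008 genes tested, DESeq2 called 2044 higher and 1703 lower, and voom called 1470 higher and 1194 lower. All genes passing numbered 1823 with the replicate block, 750 in WT libraries alone and 847 in Flox libraries alone, and 2434 to 2940 with single libraries left out. Stat2 did not pass in the block (1.98, adjusted p = 0.0676), in WT libraries (2.48) or in Flox libraries (1.69), nor Trim25 in the block (1.65, adjusted p = 0.0755). Ifnar1 turned sign to 0.15 in WT libraries and lay at 0.0 with the 5 CPM filter, Ifnar2 turned to 0.06 and Irf9 to 0.74 in Flox libraries. With single libraries left out, Ifnar1 ran from -0.12 to 0.07 and Irf9 from -0.94 to 0.12. The cause was not tested.

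Between genotypes, genes passing numbered 256 with DESeq2 and 1 with voom in tumor, where DESeq2 called 1 member. In spleen they numbered 124 with DESeq2, 1 with the 5 CPM filter, 4 with all libraries in 1 fit, 1 without both WT replicate 2 libraries and 0 to 1 with single libraries left out. For the difference DESeq2 called 134 genes and 1 member, 0 to 1 genes passed with single libraries left out, and the members' median ran from 0.30 to 0.87. With single libraries left out, in tumor Irf7 ran from -0.03 to 0.26, Usp18 from -0.07 to 0.96, Stat2 from -0.51 to 0.82 and Irf9 from -0.58 to 1.76, and in spleen Ifnar1 from -0.09 to 0.21. Stat2 in tumor was -0.33 with the block. Same-numbered samples correlated at -0.03 to 0.054, under the 0.1 asked of a pairing, although both WT replicate 2 libraries hold Xist together with the Y-linked Ddx3y (127 CPM in TIL WT 2 and 30 CPM in Spleen WT 2) and high Adgre1 (143 CPM in TIL WT 2 and 200 CPM in Spleen WT 2). The block changed no other direction among the named genes.

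Depth limits the low spleen levels: 3 counts are 0.241 to 0.580 CPM, close to the 0.633 CPM of Isg15 in its lowest library. Other members reached lower, with 0.379 CPM of Oasl1 in Spleen Flox 2, 0.439 CPM of Mx2 in Spleen Flox 3 and 0.613 CPM of Oasl2 in Spleen WT 3. The limit therefore applies to the tissue folds of these genes as well.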
